A study of Schizosaccharomyces pombe with 3 samples.

Results

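SPAC323.07c and SPBC887.17 are fission yeast (Schizosaccharomyces pombe) genes for membrane transporters, and SPBC887.16 is a short gene that lies directly 5′ of SPBC887.17 on the same strand. They were followed in a chromatin immunoprecipitation experiment on spotted arrays, in which each gene is represented by an ORF feature, a PCR product of its coding sequence, and by an intergenic feature, a PCR product of the gap 5′ of it. The features were chosen by name, and the genes were singled out because their ratios of precipitate over input were already known to be high, so the ratios below describe the members and are not tested. The 3 genes gave 6 features, 3 of them intergenic, with 2 spots each on every array. The arrays as a whole carried 10237 named features (5169 intergenic and 5068 ORF) of 5592 gene names.

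All 3 arrays came from a strain in which Tup11 carried green fluorescent protein (GFP), kept in rich YES medium and harvested in mid-log phase. Tup11 was precipitated with a polyclonal antibody against GFP, and the precipitate was hybridised together with input DNA of the same strain after both had been amplified. Replicates 1 and 2 were hybridised to print batch E120D and replicate 3 to print batch F060D, from separate experiments per the labels. No untagged strain, other medium or other genotype was analysed here, so each ratio compares precipitate with input within a single strain and cannot be set against a background precipitation.

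Tup11 and its paralogue Tup12 are fission yeast relatives of the budding yeast corepressor Tup1. They act with Ssn6 and do not bind DNA themselves; sequence-specific repressors such as Scr1 and the iron-sensing GATA factor Fep1 bring them to promoters, where they are known for keeping nutrient and stress genes low. Plasma membrane transporters for iron and other nutrients are well known among the genes under such control. MATE proteins, the family of SPAC323.07c, move organic compounds out of the cytoplasm by exchange with protons or sodium ions.

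In the reference genome ASM294v3, SPAC323.07c lies on the minus strand of chromosome I, with its coding sequence of 1602 bases (534 codons, 2 coding exons) between 3918201 and 3919864 and the reference product "MatE family transporter". The gap 5′ of it, from 3919865 to 3921075, is 1211 bases long and is shared with rmp1, which is transcribed away from it. SPBC887.17 lies on the plus strand of chromosome II, with 1878 coding bases (626 codons, 1 exon) from 3576032 to 3577909 and the reference product "transmembrane transporter". Its gap, from 3575251 to 3576031, is 781 bases long and is bordered on the 5′ side by the end of SPBC887.16. SPBC887.16 has 330 coding bases (110 codons) from 3574921 to 3575250 and an uncharacterised product. Among 5113 protein-coding genes the median coding length was 1137 bases, and 6.42% had 330 or fewer. The gap 5′ of SPBC887.16, from 3572262 to 3574920, is 2659 bases long and is shared with sur2, transcribed the other way. The median over 4537 placed intergenic features was 874 bases. The GC content of the member gaps was 34.4% for SPAC323.07c, 31.2% for SPBC887.17 and 32.5% for SPBC887.16, against a median of 31.2%. Annotated long non-coding RNAs overlap all of them, namely SPNCRNA.3750 and SPNCRNA.3751 in the gap of SPAC323.07c, SPNCRNA.6189 and SPNCRNA.6190 in that of SPBC887.17, and SPNCRNA.1616, SPNCRNA.6188 and SPNCRNA.1617 in that of SPBC887.16.

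The 250 bases before each annotated transcript start are given here because they lie in or beside the gaps with the high ratios (RefSeq, ASM294v3, 5′ to 3′ on the strand of the gene). Capitals mark GATAA, the core word of GATA factors such as Fep1 (TTATC where it lies on the other strand), and CCCCAC, a word of the Scr1 type. The first bases of the SPBC887.17 window lie in the coding sequence of SPBC887.16, and for SPBC887.16, which has no annotated 5′ untranslated region, the window ends at the start codon.
SPAC323.07c, chrI:3920059-3920308, minus strand: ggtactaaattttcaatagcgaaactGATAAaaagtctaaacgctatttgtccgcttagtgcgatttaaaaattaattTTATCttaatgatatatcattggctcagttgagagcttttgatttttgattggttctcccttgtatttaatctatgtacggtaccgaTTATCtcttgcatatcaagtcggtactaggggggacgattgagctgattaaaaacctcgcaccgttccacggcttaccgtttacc
SPBC887.17, chrII:3575193-3575442, plus strand: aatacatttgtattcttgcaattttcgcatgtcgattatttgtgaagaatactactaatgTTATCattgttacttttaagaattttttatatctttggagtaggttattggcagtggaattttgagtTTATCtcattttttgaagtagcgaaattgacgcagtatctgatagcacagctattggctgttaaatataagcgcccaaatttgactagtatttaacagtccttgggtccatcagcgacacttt
SPBC887.16, chrII:3574671-3574920, plus strand: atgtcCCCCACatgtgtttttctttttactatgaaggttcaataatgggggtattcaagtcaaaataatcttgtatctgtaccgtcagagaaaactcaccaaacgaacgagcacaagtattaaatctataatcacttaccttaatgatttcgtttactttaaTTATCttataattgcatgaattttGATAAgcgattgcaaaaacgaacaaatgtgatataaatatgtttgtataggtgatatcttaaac

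The search on both strands covered GATAA and CCCCAC, the stress element CCCCTC, the other Scr1-type word CCCCGC, the Atf1-type word ACGTCA, the E box CACGTG, and also the word CACGTC. The words marked in the windows do not overlap each other. The SPAC323.07c window held 3 GATAA, the SPBC887.17 window 2 and the SPBC887.16 window 2, and 54.2% of 5112 such windows held at least 1, so its presence does not set these genes apart. CCCCAC, 245 bases before the start codon of SPBC887.16, was present in 2.72% of windows. The whole gap 5′ of SPBC887.16 held 3 CCCCAC, starting 395, 290 and 245 bases before the start codon, and 1 CCCCTC at 992 bases. The gaps of SPAC323.07c and SPBC887.17 held 7 and 6 GATAA and none of the other words, and the coding sequence of SPBC887.16 held 1 GATAA. These matches describe letters and do not show binding of any factor.

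Ratios are given as log2 of precipitate over input, averaged over a feature's spots and set to 0 at the median of each array's measured features. A feature was measured where at least 1 spot had signal in both channels. This was so for 7784, 4417 and 9981 features on replicates 1 to 3, with 4284 (1548 intergenic and 2736 ORF) measured on every array. The dyes behind channels A and B are not named in the scanner files. When B was divided by A, replicate 3 ran against replicate 1 (r = -0.54 over 7769 features) and against replicate 2 (r = -0.38 over 4407), while replicates 1 and 2 ran together (r = 0.72 over 4288). The direction used here takes the precipitate as channel B on replicates 1 and 2 and channel A on replicate 3. It is likely and not settled. It rests on the deposited value tables, which with their ORF and intergenic names exchanged followed channel A on replicate 3 (r = 0.97, against 0.78 for B) and channel B on replicate 1 (r = 0.50, against 0.23 for A), but neither clearly on replicate 2 (r = 0.05 for B and -0.04 for A). That the channel followed held the precipitate is an assumption, since the content of these values is not settled. With the direction used, the medians of 6 mitochondrial features, DNA outside the nucleus, were -3.20, -3.91 and -2.12. A second value accompanies the comparisons, with channel B as the precipitate on all 3 arrays. It is called the same-letters reading and differs in the sign of every replicate 3 value. With the precipitate in the opposite channel on all 3 arrays, each ratio would carry the opposite sign. Features carry the names of the scanner tables, against which the value tables have ORF and intergenic names exchanged. The scanner tables' 64 control spots named Ef1-b had medians of -0.62, -0.78 and 0.74 on replicates 1 to 3, nearer to the ORF feature ef1-b (-0.57, -0.98 and 0.52) than to its intergenic feature (3.30, 1.69 and 3.61). If the scanner names were the exchanged ones, every gap value and ORF value below would trade places.

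The gap 5′ of SPAC323.07c was among the intergenic features with the highest ratios on every array. IGR-SPAC323.07c had 2.81, 2.43 and 3.23 on replicates 1, 2 and 3. All of these values lay above the 99th percentile of the intergenic features of their array, at 99.4, 99.3 and 99.6. The mean was 2.83 ± 0.40 (SD, n = 3 arrays), 7.09 times the array median on a linear scale, and was 10th of the 1548 intergenic features measured on all arrays. The same-letters reading gave a mean of 0.67 ± 3.38 and place 94.

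On replicates 1 and 3 the channels behind this ratio were a bright precipitate and a dim input. On replicate 1 the spots of IGR-SPAC323.07c had 2.60 and 2.37 times the array's median precipitate signal, against 0.276 and 0.321 times the median input signal. On replicate 3 they had 5.19 and 4.67 times the median precipitate, against 0.600 and 0.506 times the median input. On replicate 2 both spots had precipitate (1.26 and 1.18 times the median), but only 1 of them had any input signal, at 0.192 times the median, so the ratio of replicate 2 rests on a single spot at the 0.323 percentile of input. The precipitate of this gap thus lay above the median of its channel and the input below it in every spot with a signal.

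The coding sequence of SPAC323.07c did not share the high ratio of its gap. The ORF feature had 0.27, -1.68 and -0.27, at percentiles 77.3, 6.47 and 35.4 of the ORF features. Its mean was -0.56 ± 1.00, with replicate 2 far below the other arrays. Without replicate 2 its mean was -0.00062, at the array median. Both channels were bright here, with 6.98 and 7.03 times the median precipitate against 4.57 and 5.25 times the median input on replicate 1, and 5.28 and 5.51 times the median precipitate against 6.88 and 6.76 times the median input on replicate 3. The precipitate signal of the ORF was therefore as high as or higher than that of the gap relative to the array, and the difference in ratio came with a much brighter input. The same-letters mean was -0.38.

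**Figure D1:**
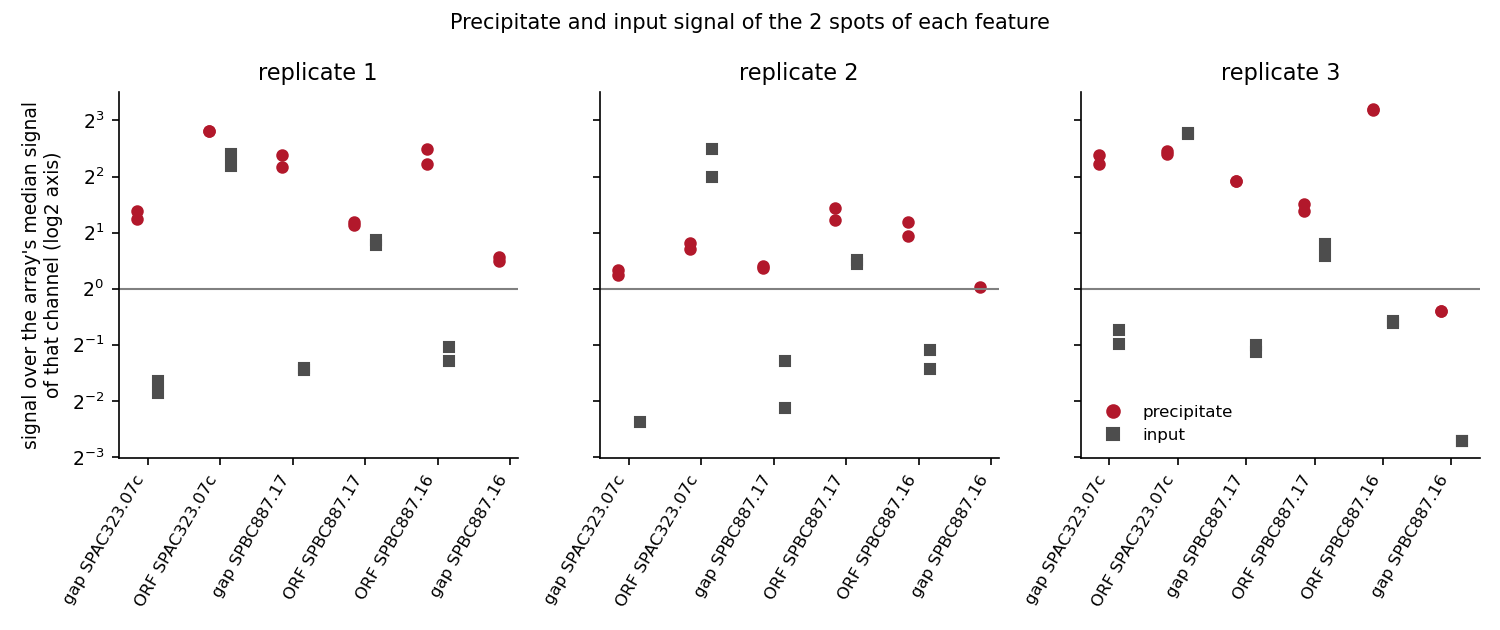
Precipitate (circles) and input (squares) signal of the 2 spots of each member feature on replicates 1, 2 and 3, as a multiple of the median signal of that channel on that array (log2 axis); a spot listed at 0 is not drawn. The gap of SPAC323.07c and the gap of SPBC887.17 have precipitate above 1 and input below 1, as has the SPBC887.16 ORF, while both channels of the SPAC323.07c ORF lie above 1.

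The gap 5′ of SPBC887.17 was about as high. IGR-SPBC887.17 had 3.46, 1.90 and 3.05, at percentiles 99.9, 95.6 and 99.4 of the intergenic features, and replicate 2 was the lowest array, as it was for the gap of SPAC323.07c. The mean was 2.80 ± 0.81, 6.98 times the array median, and stood 11th of 1548. The same-letters reading gave 0.77 ± 3.40 and place 58. Its spots had 4.50 and 5.23 times the median precipitate, against 0.365 and 0.375 times the median input, on replicate 1. On replicate 2 they had 1.30 and 1.32 times the median precipitate, against 0.410 and 0.230 times the median input. As in the gap of SPAC323.07c, bright precipitate met dim input on replicates 1 and 3. On replicate 2 the precipitate lay only modestly above its median, at percentiles 71.3 and 72.4, and the 2 spots differed by 0.858 in log2 ratio.

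The SPBC887.17 ORF lay much lower than its gap and somewhat above the typical ORF. It had 0.09, 0.67 and 0.82, at percentiles 71.9, 88.8 and 95.5 of the ORF features. Its mean of 0.53 ± 0.38 was 160th of 2736 ORF features. In the same-letters reading it was -0.02 ± 0.75, the sole mean of a member feature to change its sign.

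The short SPBC887.16 ORF, although a coding sequence, had the highest mean ratio of the members measured on all arrays in the likely direction. On replicate 1 the gap of SPBC887.17 was higher, on replicate 2 that of SPAC323.07c, and in the same-letters means both gaps were. SPBC887.16 had 3.28, 2.14 and 3.87, at percentiles 99.8, 99.6 and 99.96 of the ORF features. Its mean of 3.10 ± 0.88, 8.55 times the array median, was 2nd of 2736 ORF features, whose median mean was -0.39. The same-letters reading gave 0.52 ± 3.84 and place 108. Its spots had 4.70 and 5.64 times the median precipitate against 0.410 and 0.484 times the median input on replicate 1, and 9.15 and 9.26 times the median precipitate against 0.671 and 0.652 times the median input on replicate 3. Its input was dim, as in the gaps of the transporters, while the input of both transporter ORFs lay above the array median on every array.

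The gap on the other side of SPBC887.16 could be measured on 1 array. IGR-SPBC887.16 had 2.39 on replicate 3, at percentile 98.1 of the intergenic features. On replicates 1 and 2 both spots had no input signal, and on replicate 2 a precipitate spot was at 0 too. Setting the missing input to the lowest decile of its channel gave 1.75 on replicate 1 and 0.98 on replicate 2, values that depend on that setting. Features without any input signal made up 31.5%, 68.6% and 2.11% of intergenic features on replicates 1 to 3, so this loss was common on the arrays of batch E120D. On replicate 3 both its channels were dim, with 0.759 and 0.756 times the median precipitate against 0.152 and 0.152 times the median input. The ratio in this long gap was thus reached at a lower signal than in the others.

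**Figure D2:**
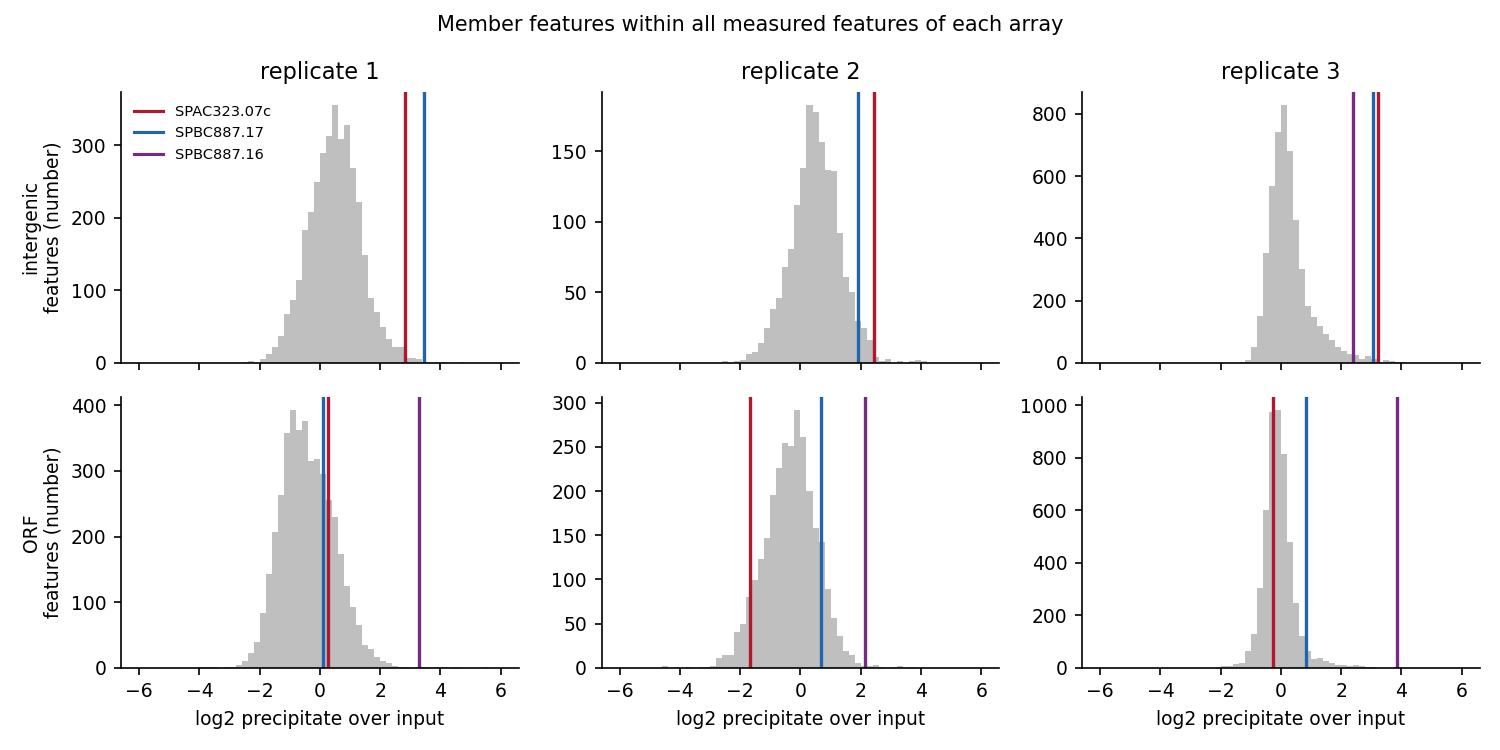
Numbers of features (vertical axes) by log2 ratio of precipitate over input (horizontal axis, array median 0) for all measured intergenic features (top row) and ORF features (bottom row) on replicates 1, 2 and 3, with vertical lines at the features of SPAC323.07c, SPBC887.17 and SPBC887.16. The gaps of both transporters and the SPBC887.16 ORF lie in the right tails on every array, and the ORF features of the transporters lie within the bulk or, for SPBC887.17 at 0.82 on replicate 3, at its edge.

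Of the 6 member features, 5 were measured on all arrays, and 3 of these lay above the array median in limma (adjusted p under 0.05): the gaps of SPAC323.07c and SPBC887.17 and the SPBC887.16 ORF. Over all features 9.22% were called above (21.5% of intergenic and 2.27% of ORF features) and 10.5% below, and since the members were chosen on these ratios their count carries no evidence. The same 3 features were on the binding list, formed of features whose median percentile over the arrays was 85 or higher, which held 437 features (10.2%; 23.8% of intergenic and 2.49% of ORF features). In the same-letters reading limma called 0 members and 0 of 4284 features above (0.0%), with 14 above and 134 below at an unadjusted p under 0.05, and the binding list held 288 features (6.72%), among them the same 3 members.

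The difference between gap and coding sequence was large for both transporters. For SPAC323.07c the gap exceeded the ORF by 2.55, 4.11 and 3.50, with a mean of 3.39 ± 0.79. None of the 752 genes with both features measured on all arrays had a larger mean difference, and the median over them was 0.79. For SPBC887.17 the gap exceeded the ORF by 3.37, 1.23 and 2.24, with a mean of 2.28 ± 1.07, and 27 of the 752 genes (3.59%) had a larger one. In the same-letters reading the mean differences were 1.05, with 101 genes larger (13.4%), and 0.79, with 207 genes larger (27.5%). The first transporter thus stood at the end of the range in the likely direction, and this place depended on the direction of replicate 3. Its largest difference, 4.11 on replicate 2, came from a gap value of 1 spot with dim input and the lowest of its ORF values. Without replicate 2 its mean difference was 3.02, and its place among the genes is not reported for that setting.

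**Figure D3:**
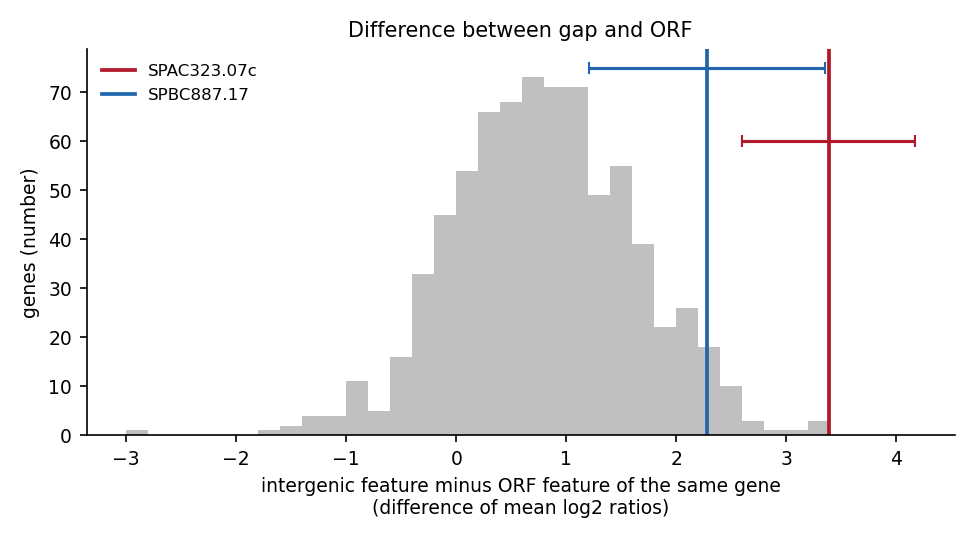
Number of genes (vertical axis) by the difference of the mean log2 ratios, intergenic feature minus ORF feature of the same gene (horizontal axis), for the 752 genes with both measured on all arrays. Vertical lines mark SPAC323.07c at 3.39 and SPBC887.17 at 2.28, and the horizontal bars show their SD over the 3 arrays; the height of a bar has no meaning.

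SPBC887.16 was then set against the gap it borders. Its ORF minus IGR-SPBC887.17 gave -0.18, 0.24 and 0.82, a mean of 0.29 ± 0.50, so the signs differed between arrays and the difference was smaller than its spread. Its ORF exceeded the SPBC887.17 ORF on the far side of that gap by 3.19, 1.47 and 3.05, a mean of 2.57 ± 0.96. The same-letters means of these differences were -0.25 ± 0.53 and 0.53 ± 3.22. The coding sequence of SPBC887.16 therefore had the level of the gap and not that of the neighbouring transporter ORF.

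A mean over 2 in the coding sequence 5′ of a gap was uncommon among genes in the same arrangement. In 286 gaps between genes that run in the same direction, with both features measured on all arrays, the ORF 5′ of the gap had a median of -0.29, and in 53 it exceeded the gap. In 3 of the 286 this ORF had a mean over 2, and SPBC887.16, chosen for its ratio, is among the 3. Of all ORF features 2.27% were called above, so such a mean was uncommon among ORFs in general and not particular to this arrangement. Among those of the 286 gaps with a mean of at least 2, which were 9, the ORF 5′ of the gap exceeded it in 1, that of SPBC887.16. It had a mean over 2 in 2. The SPBC887.16 ORF exceeded its gap on replicates 2 and 3 and not on replicate 1. Keeping gaps with a high mean makes a lower ORF likely, and SPBC887.16 was chosen for its ratio. The counts among the 9 are therefore a description and carry no evidence. In the same-letters reading the median over the 286 was -0.33, 70 ORFs exceeded the gap, and of the same 9 gaps 1 was exceeded, which was not that beside SPBC887.16. Among the 9, the other ORF with a mean over 2 was str3, a siderophore transporter gene (2.54 over 1893 coding bases), beside the gap of shu1, a gene of haem uptake (2.99). In the remaining 7 pairs the ORF 5′ of the gap ranged between -0.55 and 0.91. The shortest of the 9 ORFs was SPBC887.16 with 330 bases, followed by SPCC162.01c with 735 bases and a mean of 0.46. The labels give neither the ends of the PCR products nor the lengths of the sheared fragments, and their part in the level of SPBC887.16 was not tested.

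Other short ORFs, of at most 400 coding bases, were called above more often than ORF features in general. Of 118 measured on all arrays, without SPBC887.16, 13 lay above (11.0%, against 2.27% of all ORF features) and 8 below, with a median of -0.21 against -0.39. Without replicate 1 the count above was 2 of 123 (1.63%), where calls above over all features also fell, from 395 to 48. Without replicate 2 it was 26 of 270 (9.63%), with 552 features called above in all. The share of all ORF features called above is not reported here for these settings, so whether the excess held in them is not known. In the same-letters reading the count of short ORFs above was 0, as over all features. The highest were SPAC683.03 (318 bases) at 2.47 ± 0.60, SPAC1F8.08 (363 bases) at 2.33 ± 0.76 and SPAC9E9.01 (300 bases) at 2.10 ± 0.56, all of uncharacterised product, with limma adjusted p of 6.57e-10, 7.68e-09 and 2.56e-07. SPBC887.16 at 3.10 lay above all of them.

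The features around the members showed how far the high ratios reached. IGR-SPAC323.08, the second feature of the gap between SPAC323.07c and rmp1 (a subunit gene of ribonuclease MRP), had 2.49, 2.00 and 2.86, a mean of 2.45 ± 0.43 with a limma adjusted p of 9.22e-10. It is placed in the same gap; where the PCR products lie within the gap is not given, so whether they cover the same bases is unknown. IGR-SPAC323.07c exceeded it by 0.32, 0.43 and 0.37 (0.38 ± 0.05), a small step of the same sign on every array, and the same-letters means were 0.55 for IGR-SPAC323.08 and 0.13 ± 0.44 for the difference.

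Beyond that gap the ratios fell off at once on both sides. Of 20 neighbouring features of the 5 genes on either side, 8 were measured on all arrays, 1 was called above, which was IGR-SPAC323.08, and 0 below. Against 9.22% above and 10.5% below over all features, counts this small say little about the neighbours. The other 19 lay between -1.37 and 0.88 on replicate 3, 17 of them between -0.79 and 1.21 on replicate 1 and 7 between -0.37 and 0.44 on replicate 2. The rmp1 ORF, at the far end of the shared gap, had 0.43 ± 0.43 (limma adjusted p = 0.415). Other genes here were pex8, SPAC323.04, mtq2, imt1, lsm6, sec67 and rpa49. In the same-letters reading none of the neighbours was called above.

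At SPBC887.16 and SPBC887.17 the high ratios covered a gap and the short ORF, with lower values in the gap beyond. IGR-SPBC887.15c is the second feature of the long gap between sur2 (a sphingolipid hydroxylase gene) and SPBC887.16. It had 1.20, 1.31 and 1.17, a mean of 1.23 ± 0.08 with a limma adjusted p of 0.00629. These values lay at percentiles 80.8, 85.7 and 89.6 of the intergenic features, and the mean was 208th of 1548. Of all intergenic features 21.5% were called above, so this call was not unusual. Its replicate 2 ratio rests on 1 spot, since the other had no input signal. On replicate 3 IGR-SPBC887.15c lay below the 2.39 of IGR-SPBC887.16, which is placed in the same gap of 2659 bases. On replicate 3 the ratios were 1.17 and 2.39 for the features of this gap, whose order within it is unknown, 3.87 in the SPBC887.16 ORF, 3.05 in the gap of SPBC887.17 and 0.82 in its ORF, so the highest value lay over the short gene. Replicate 1 had its highest value in the gap of SPBC887.17 and replicate 2 in the SPBC887.16 ORF.

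Of 16 neighbouring features here, 6 were measured on all arrays, 1 lay above, which was IGR-SPBC887.15c, and 1 below, the ORF of the histidine biosynthesis gene his4, at -1.38 ± 0.99 (limma adjusted p = 0.00187). Over all features 9.22% were called above and 10.5% below, so counts of 1 do not set these neighbours apart. Without IGR-SPBC887.15c and with his4, 15 features lay between -0.83 and 0.94 on replicate 3. On replicate 1, 12 of them lay between -1.99 and 2.34, and the 2.34 was the gap of pus2, a pseudouridine synthase gene, which had -0.09 on replicate 3. Other genes were SPBC887.12, cem1, hfi1 and nat1. Over both loci, 2 neighbouring features were called above. This count was 1 without replicate 1 and 1 without replicate 2, where IGR-SPBC887.15c lost its call, and 0 in the same-letters reading (mean 0.45 for IGR-SPBC887.15c).

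**Figure D4:**
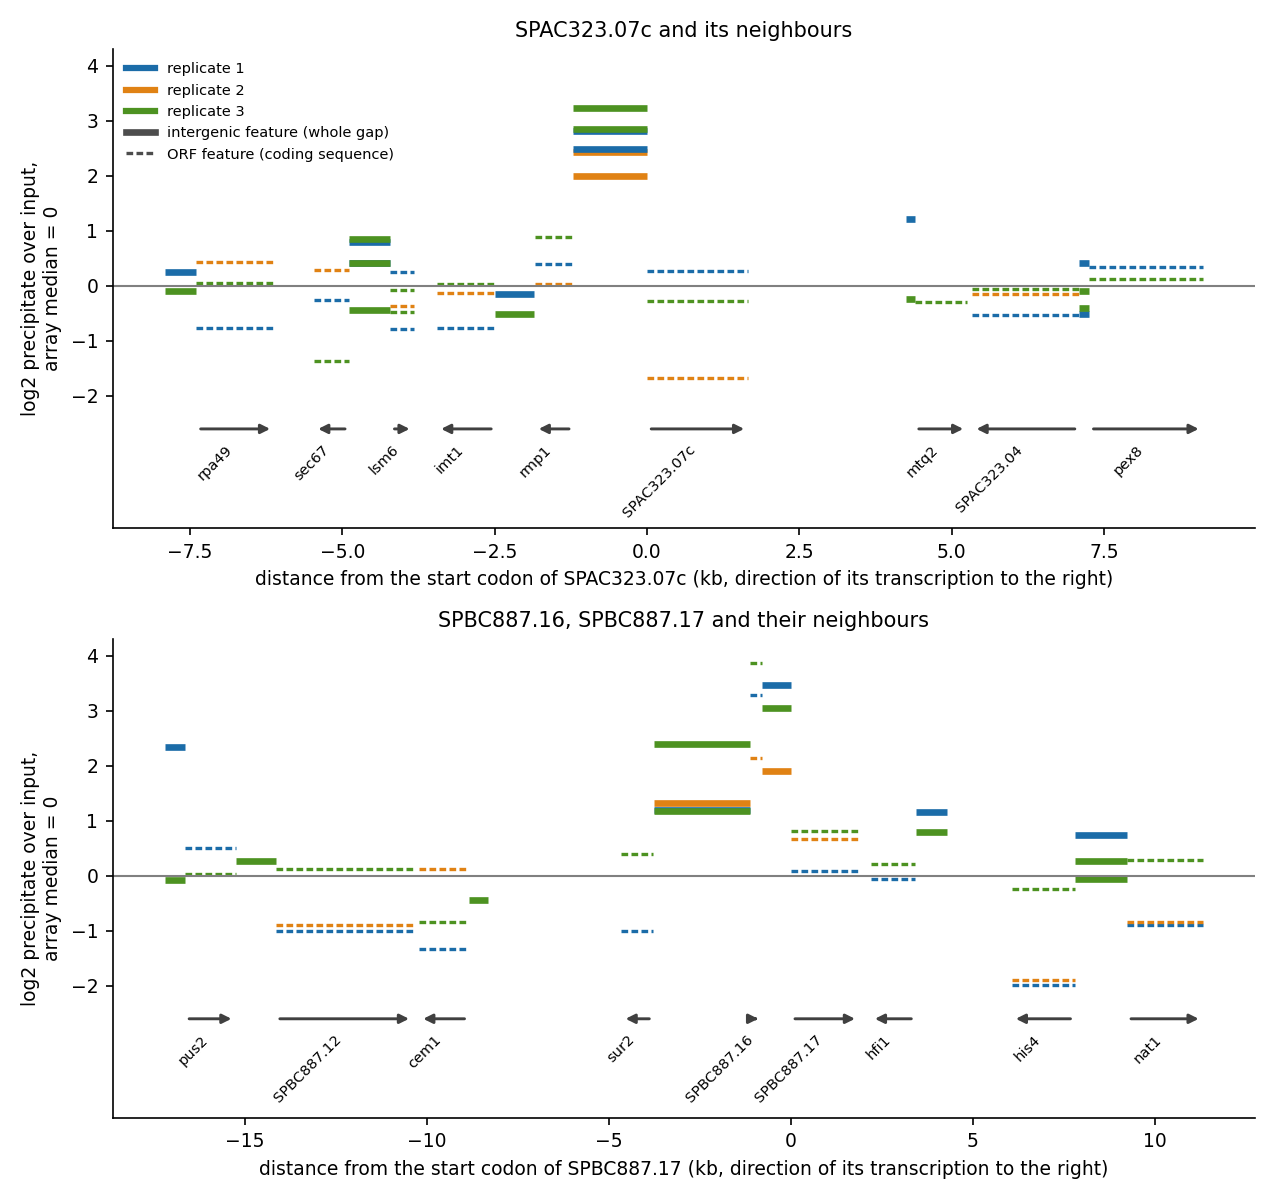
Log2 ratio of precipitate over input (vertical axis, array median 0) of each feature of the members and of the neighbouring genes named in the text on replicates 1, 2 and 3, drawn over the extent of the gap (thick lines) or coding sequence (dashed lines) by distance in kb from the start codon of SPAC323.07c (top) and of SPBC887.17 (bottom); a gap between divergent genes carries the features of both where both are named. Arrows show genes and their direction of transcription. The raised values cover 1 gap at SPAC323.07c, and at SPBC887.17 they cover its gap, the SPBC887.16 ORF and, at lower values, the gap beyond it.

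The other MATE genes differed among themselves. IGR-SPAC11D3.06 had 2.14 on replicate 1 and 1.71 on replicate 3, and no ratio on replicate 2. Without replicate 2 it was 1 of 552 features called above in limma. IGR-SPCC4B3.13 had -0.17, 0.05 and 0.02, a mean of -0.03 ± 0.12 (limma adjusted p = 0.963), close to the array median on every array (same-letters mean -0.05). The SPCC4B3.13 ORF lay below the array median at -1.01 ± 0.93 (limma adjusted p = 0.0295; same-letters mean -1.05), and the SPAC11D3.06 ORF had -0.14 on its single array, replicate 3. The gap of SPAC11D3.06 thus had high ratios on replicates 1 and 3, which alone measured it, and that of SPCC4B3.13 had not. SPAC323.07c was chosen for its ratio, so its gap is not counted with them.

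No gap or ORF of the transporter genes whose product names a nucleobase or nucleoside was called above by limma, and 0 of the 3 measured on all arrays had an unadjusted p under 0.05. IGR-SPCC285.05, of a purine nucleoside transporter gene, had 0.02 ± 0.31 (limma adjusted p = 0.977), and the long intergenic feature of the purine transporter gene SPAC29B12.14c had -0.36 ± 0.45 (limma adjusted p = 0.502). The SPCC285.05 ORF had -0.53 ± 1.08 (limma adjusted p = 0.304). Their same-letters means were -0.02, -0.46 and -0.88. The features of hut1, which the list took in through the word uridine although its product carries a nucleotide sugar, and of the uracil transporter gene fur4 were not measured on all arrays. IGR-hut1 had -0.56 and -0.33 and the fur4 ORF 0.33 and 0.11 on replicates 1 and 3. None of these reached the values of the SPBC887.17 gap.

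The list of membrane transporters took genes whose reference product names a membrane transporter, permease or the like, without the members. Of its 37 intergenic features measured on all arrays, 13 lay above (35.1%, against 21.5% of all intergenic features) and 1 below (against 1.87% of all intergenic features). The genes isp4, vht1, gti1 and tgp1 each count with 2 features, 1 of them a long intergenic feature. The product words also took in gti1, an inducer of gluconate transport. The median of the 37 was 0.62 against 0.32 over all intergenic features. Without replicate 1 the count above was 3 of 38 (7.89%), where calls above over all features also fell, from 395 to 48. The share of all intergenic features called above in that setting is not reported here. In the same-letters reading the count of transporter gaps above was 0, as over all features, with a median of 0.07 against 0.07. Of the 49 ORF features of the list 2 lay above (4.08%, against 2.27% of all ORF features) and 7 below (against 15.4% of all ORF features). Their median was -0.36 against -0.39. The highest gaps were those of the iron permease gene fip1 at 2.94 ± 1.03, the nicotinic acid transporter gene tna1 at 2.67 ± 0.83 and SPCC576.17c, of a vitamin B6 transporter, at 2.53 ± 0.96, with limma adjusted p of 6.81e-14, 1.89e-11 and 2.47e-10. SPBC887.17, at 2.80, stood between fip1 and tna1. The lowest were the long intergenic feature of tgp1, a glycerophosphodiester transporter gene, at -1.09 ± 0.78 (limma adjusted p = 0.0174), the gap of the potassium transporter gene trk1 at -0.89 ± 0.79 (0.0596) and that of SPAC2E12.03c, of a vacuolar amino acid transporter, at -0.62 ± 0.61 (0.213).

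The ORF features of the transporter genes with high gaps ranged widely. The SPBC887.17 ORF had 0.09, 0.67 and 0.82, against 1.95, 1.37 and 2.49 for the ORF of tna1 (1.93 ± 0.56, limma adjusted p = 2.94e-06) and 1.93, 1.54 and 2.11 for that of fip1 (1.86 ± 0.29, limma adjusted p = 8.13e-06). It lay below both on every array in the likely direction, as did the SPAC323.07c ORF; the differences were not tested, since the members were chosen on these ratios. The ORF of SPCC576.17c, with 0.45, 0.09 and 0.96 (0.50 ± 0.44), was close to that of SPBC887.17, so a high gap with an ORF near the array median was not particular to SPBC887.17. The same-letters means were -0.02 for SPBC887.17, against 0.28 for tna1, 0.46 for fip1 and -0.14 for SPCC576.17c.

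**Figure D5:**
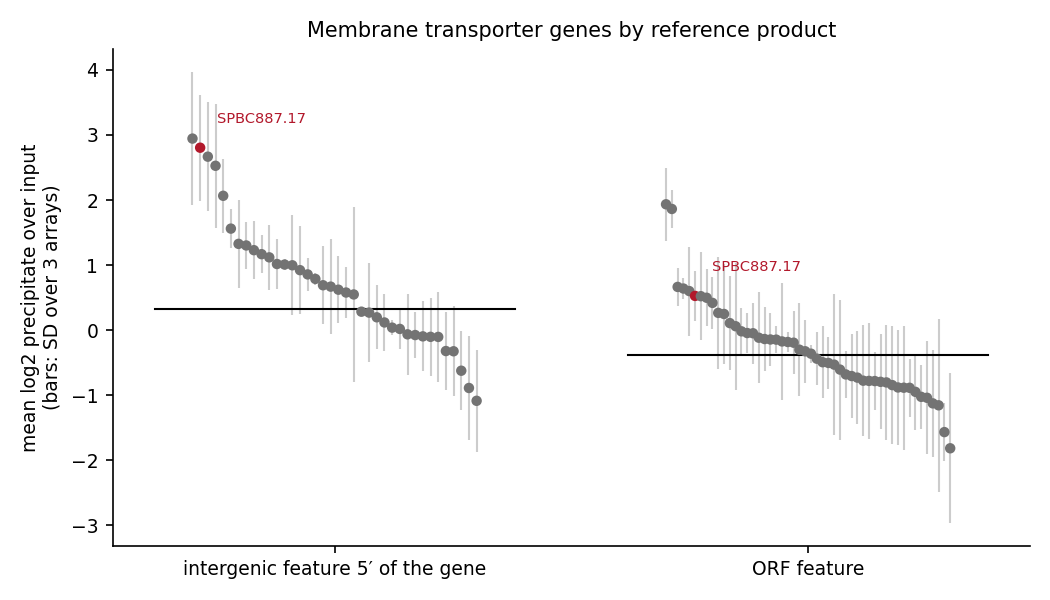
Mean log2 ratio of precipitate over input (vertical axis, with bars for the SD over 3 arrays) of the intergenic features (left) and ORF features (right) of the membrane transporter list that were measured on all arrays, each side ordered from high to low. A gene with a long intergenic feature can appear more than once on the left, and gti1, an inducer of gluconate transport, is included. Black lines are the medians of all intergenic (0.32) and all ORF features (-0.39). SPBC887.17, in red, is the second gap at 2.80, while its ORF lies at 0.53; SPAC323.07c is not drawn, because its product falls in the MATE list.

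The features most like each member were found by the Euclidean distance over the ratios of the 3 arrays, among features of the same type, as a description; turning the sign of an array leaves these distances as they are. For IGR-SPAC323.07c they were the gaps of gal10, of galactose use (distance 0.365), shu1 (0.431) and the calcium pump gene cta3 (0.466), out of 1547 others. For IGR-SPBC887.17 they were the gaps of tna1 (0.242), the protein kinase gene psk1 (0.592) and the feature named ef1-b (0.622). For the SPBC887.16 ORF, the nearest of 2735 were SPAPB1A10.13 (0.623), prt2 (1.00) and SPAC683.03 (1.18), so few ORF features came close to it. The SPAC323.07c ORF lay nearest to crd1 (0.243), rad4 (0.375) and cwf19 (0.389), and the SPBC887.17 ORF to wtf5-pseudo (0.088), igo1 (0.160) and SPAC9E9.17c (0.178).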

How the data were processed

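Per the labels' protocols, the authors scanned 3 two-colour arrays (22176 spots each) and quantified them with TIGR Spotfinder; in the deposited scanner tables each spot has a linear intensity per channel (A and B), less its local background, with rejected spots at 0, per the file headers. The deposited value tables hold log10 values scaled near the array median, which the authors normalised to the 50th percentile in GeneSpring per the labels' protocols, with -2 for a missing value; their content (1 channel or a ratio), direction and feature names are not settled, with medians of 0.04, 0.14 and 0.01 over the rows that hold a value. They served for the direction and as an alternative. The authors' software versions and genome build were not given in the labels or headers.

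Spots at 0 in either channel were left out, spots with saturated pixels (98, 105 and 16) were kept, and log2 ratios from the deposited intensity were averaged over spots and centred on the array median (Python 3.11.15, numpy 2.4.6, pandas 2.3.3). limma 3.58.1 (R 4.3.3; intercept alone, eBayes) tested the 4284 features measured on all 3 arrays, with Benjamini-Hochberg adjustment over all of them at 0.05. It gave every feature the same standard error (0.358 on the log2 scale), so its p-values follow the mean and not the feature's own SD; the SDs printed are the features' own. The 3 arrays limit the precision. On simulated data for this comparison (4284 features, 200 raised), 0% of features raised by 1 on the log2 scale were recovered. Those raised by 2 and by 3 were recovered at 100% and 100%, with 0 false calls. Each simulated feature had a mean of exactly 0 or of the amount added, so the 0 false calls were fixed in advance. The simulation therefore gives neither a rate of false calls nor the power on the real arrays. Names were matched to ASM294v3 (92.2% of features). Intergenic features were placed in the whole gap 5′ of the named gene; on replicate 3 the pairs placed in the same divergent gap had a Spearman rho of 0.51 (1097 pairs), against 0.20 for other adjacent pairs (2953), across features that are not independent.

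The members and gene lists were chosen with earlier results of these data known. Named genes were the members, the 5 protein-coding genes on either side (some of them are counted but not reported here by name), measured MATE and nucleobase transporters, the 3 highest and 3 lowest transporter gaps, the 3 highest short ORFs and the 3 features nearest to each member. The transporter list was taken from product words without "predicted", which RefSeq products seldom carry. Other channel letters, replicates left out, loess, centring, normexp, undetected channels, dim or saturated spots, spot summary, limma prior, print batch, percentile and the deposited values were tried as alternatives.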

Additional observations from a re-analysis of the deposited data

How the results depend on the processing

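Of 95 ratios and differences under alternatives, 75 stayed within 1 SD over the arrays of the value reported, and of 82 counts 52 stayed within 1.5 times the count reported. Part of the 75 was fixed in advance. Leaving out 1 of 3 arrays cannot move a mean by 1 SD, and the median of 2 spots is their mean. Centring on features measured on all arrays cancels in a gap minus ORF difference. A mean changed sign in 3 cases, the SPBC887.17 ORF with the same letters and the SPAC323.07c ORF with the deposited values under either naming. Read with the same channel letters, the means were 0.67 (SPAC323.07c gap), 0.77 (SPBC887.17 gap), -0.017 (SPBC887.17 ORF) and 0.52 (SPBC887.16 ORF), the gap minus ORF differences 1.05 for SPAC323.07c and 0.79 for SPBC887.17, 0 features were called above and 0 below, the binding list held 288, and 0 neighbours, 0 transporter gaps and 0 short ORFs were above; this reading by construction opposes replicate 3 to the arrays it otherwise correlates with. With normexp on raw signals the same 4 features had 4.23, 4.35, 1.14 and 4.40, and loess moved the SPBC887.17 ORF to 0.97. With undetected channels set to their lowest decile the SPAC323.07c gap had 2.31. The deposited values, on the log2 scale with names as given and then exchanged, gave 2.31 and 1.84 for the SPAC323.07c gap, 1.84 and 2.31 for its ORF, and 2.28 and 1.05 for the SPBC887.17 ORF; with names as given they gave 1.05 for the SPBC887.17 gap and 0.33 for SPBC887.16. They put 5 member features on a binding list of 912, under either naming. The number of features ranked for that list is not reported here, so the 5 cannot be set beside a share of all features. Features called above, 395, became 167 with undetected channels set to their decile, and ranged over 48 to 552 with a replicate left out, the lowest without replicate 1. Features called below, 451, became 99 with loess, 200 with centring on features measured on all arrays (479 above, against 395), 192 with normexp, 273 with undetected channels set, 278 with a trended prior and 873 in batch E120D alone, and ranged over 6 to 875 with a replicate left out. The binding list, 437, became 798 with undetected channels set and 154 at the 95th percentile, and ranged over 340 to 838. With a replicate left out, neighbours above ranged over 1 to 2, MATE features above over 0 to 1, transporter gaps above over 3 to 17 and short ORFs above over 2 to 26. The cause of these moves was not tested, apart from the construction named. The means of the SPAC323.07c gap (2.62 to 3.02), the SPBC887.17 gap (2.47 to 3.26) and the SPBC887.16 ORF (2.71 to 3.58) stayed high with each replicate left out, and these 3 features were on the binding list each time. The alternative without saturated spots was chosen after seeing the data. No paired analysis was possible because there was 1 group of arrays, with precipitate and input paired within each. Dim input limits the gaps: only replicate 3 measured that of SPBC887.16. With dim spots left out (the lowest 10% of either channel), the gaps of SPAC323.07c and SPBC887.17 had no mean over all arrays. Their gap minus ORF differences could then not be formed, and these cases are not among the 95. The SPBC887.16 ORF had 3.16 in that setting.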
